A study of Homo sapiens with 6 samples.

Results

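The 78 genes described here encode the proteins of the human mitochondrial ribosome that carry MRPL or MRPS symbols. They were chosen by symbol alone out of 62700 genes in the deposited count table. The symbol had to be MRPL or MRPS followed by a number and at most 1 letter A, B or C. The rule used no measured value, but it was set with earlier results of these data known. The rule took 49 MRPL and 29 MRPS genes and left out 88 other entries with these prefixes, which are mostly pseudogenes and antisense RNAs. The letters do not always give the subunit. By structure 51 of the proteins belong to the large subunit and 26 to the small one, because MRPS30 and MRPS18A sit in the large subunit. MRPS36 is now described as a component of the 2-oxoglutarate dehydrogenase complex and belongs to neither. Cells carrying the label MKN-45, a long-established line from a human gastric adenocarcinoma, were harvested for RNA 48 h after transfection. There were 3 libraries labelled NNMT knockdown, transfected with an RNA against NNMT, and 3 libraries labelled control. The labels name both siRNA and shRNA for the transfected RNA, and they describe the controls both as untouched and as given a negative-control shRNA. The labels call the 3 libraries of each condition independent biological replicates of 1 line.

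Mitochondrial ribosomes translate the few messenger RNAs of the mitochondrial genome, all of which encode subunits of the respiratory chain and of ATP synthase. Their RNAs are encoded in the mitochondrion, while every protein is encoded in the nucleus, made in the cytosol and imported. Some of the proteins descend from bacterial ribosomal proteins and others were added in the lineage of mitochondria. NNMT, the gene named by the labels, encodes nicotinamide N-methyltransferase, a cytosolic enzyme that methylates nicotinamide with S-adenosylmethionine.

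NNMT itself was hardly detected in any library. It had 2, 8 and 14 reads in the knockdown-labelled libraries and 0, 8 and 12 reads in the control libraries, so the libraries labelled knockdown were not the lower group and the label could not be checked by its target. The fitted log2 fold change was 0.48 with a standard error of 0.93 and a 95% interval of 0.336 to 5.78 as a fold (adjusted p = 0.9995, edgeR's quasi-likelihood test), and an exact two-sided permutation test gave p = 0.6, where 3 against 3 libraries cannot go below 0.1. Library totals were 40558680 to 45405621 reads in the knockdown-labelled libraries and 41591436 to 56067484 reads in the controls. Markers of a gastric or intestinal lineage were mostly low. GKN1, CDX1 and CDX2 had 0 reads in every library, and 8 of 12 such markers stayed below 1 CPM (reads scaled to a common library total) in all 6. The gastric markers MUC6, TFF1, MUC5AC and TFF2 had reads in every library. MUC6 measured 25.7 to 84.1 CPM, TFF1 1.6 to 8.4 CPM, MUC5AC 3.7 to 42.5 CPM with a median of 4.87 CPM, and TFF2 0.553 to 3.5 CPM. The epithelial markers EPCAM, CDH1, KRT8, KRT18 and KRT19 were all detected, and so were the mesenchymal genes VIM, at 701 to 990 CPM, and COL1A1, at 241 to 510 CPM. Of the 7 mesenchymal markers 2, LUM and PDGFRB, stayed below 1 CPM in all 6 libraries. DCN had a median of 0.80 CPM, COL1A2 one of 8.97 CPM and COL3A1 one of 78.6 CPM. The summed level of the 5 epithelial markers was 1262 to 1596 CPM in the knockdown-labelled libraries and 1297 to 1318 CPM in the controls, and that of the 7 mesenchymal markers was 1187 to 1334 CPM in the knockdown-labelled libraries and 1138 to 1227 CPM in the controls. The 12 gastric and intestinal markers summed to 42.8 to 103.6 CPM in the knockdown-labelled libraries and 37.2 to 101.9 CPM in the controls. The 4 leukocyte markers summed to 0.33 to 0.641 CPM in the knockdown-labelled libraries and 0.696 to 1.24 CPM in the controls, and the 3 endothelial markers to 17.99 to 26.8 CPM in the knockdown-labelled libraries and 21.2 to 26.9 CPM in the controls. The endothelial sum was mostly PECAM1, at 17.7 to 26.1 CPM, while CDH5 and VWF stayed below 1 CPM in all 6 libraries. The part of these differences in the results below was not tested.

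The members share sequence features that the choice by symbol did not use. Promoter windows of 250 bases before to 50 bases after the gene start (RefSeq, GRCh38.p14) were found for 69 of the 78 members, and 6 short motifs were searched in them on both strands. The core CCGGAAG, read by ETS factors such as GABPA, was present in 30 members (43.5%) and in 16.7% of 15301 protein-coding genes with a window. The core AAGATGGC, read by YY1, was present in 21 members (30.4%) and in 4.75% of protein-coding genes. The core GCATGCGC, read by NRF1, a regulator of nuclear genes for mitochondrial proteins, was present in 6 members (8.7%) and in 4.9% of protein-coding genes. At least 1 of these 3 cores occurred in 44 members (63.8%) and in 23.7% of protein-coding genes. The other motifs were no more frequent in members: GGGCGG, read by SP1, was found in 60.9% of members and 65.1% of protein-coding genes, CCAAT in 33.3% and 42.5%, and TATAAA in 4.35% and 12.4%.

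The positions of the matches were counted from the start in 1 window per gene (69 members and 15232 other protein-coding genes). The shares above count a gene with a match in any of its windows, so the 2 sets of counts differ. Of 39 ETS matches in members, 27 began in the 100 bases before the start, as did 1482 of 2643 in other protein-coding genes. Of 21 YY1 matches in members 15 began at or after the start, all 15 on the strand of the gene. Of 613 YY1 matches in other protein-coding genes, 377 began at or after the start and 329 of them were on the strand of the gene, so this placing is common to YY1 matches in general. The stretches of MRPL20 and MRPS10 are shown because they hold an ETS match before and a YY1 match after the start, that of MRPL52 because it holds all 3 cores, with both YY1 matches before the start, and that of MRPL17 for its NRF1 matches alone. They run from 180 bases before the start to 30 bases after it, 5′ to 3′ on the strand of the gene, with matches to the ETS, YY1 and NRF1 cores in capitals and the rest in lower case.
MRPL20 (chr1:1407264-1407473, minus strand), with 2 ETS matches before and 1 YY1 match after the start: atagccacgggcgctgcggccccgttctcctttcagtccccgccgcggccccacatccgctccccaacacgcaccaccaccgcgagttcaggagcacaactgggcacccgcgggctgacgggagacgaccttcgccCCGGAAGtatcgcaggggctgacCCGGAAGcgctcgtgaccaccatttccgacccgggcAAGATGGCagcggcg
MRPS10 (chr6:42217832-42218041, minus strand), with the same order of 1 ETS and 1 YY1 match: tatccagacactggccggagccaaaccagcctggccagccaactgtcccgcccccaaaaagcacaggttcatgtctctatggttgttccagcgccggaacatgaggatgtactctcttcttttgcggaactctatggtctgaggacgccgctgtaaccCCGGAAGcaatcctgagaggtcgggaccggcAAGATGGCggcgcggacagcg
MRPL52 (chr14:22829707-22829916, plus strand), the member with the lowest p-value, with 1 NRF1, 2 YY1 and 1 ETS match: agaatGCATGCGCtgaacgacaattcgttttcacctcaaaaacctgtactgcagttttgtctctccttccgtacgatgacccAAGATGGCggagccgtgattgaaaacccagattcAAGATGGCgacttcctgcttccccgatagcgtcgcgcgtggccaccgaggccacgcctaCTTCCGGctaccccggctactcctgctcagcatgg
MRPL17 (chr11:6683311-6683520, minus strand), with 3 NRF1 matches, of which the first 2 overlap on opposite strands: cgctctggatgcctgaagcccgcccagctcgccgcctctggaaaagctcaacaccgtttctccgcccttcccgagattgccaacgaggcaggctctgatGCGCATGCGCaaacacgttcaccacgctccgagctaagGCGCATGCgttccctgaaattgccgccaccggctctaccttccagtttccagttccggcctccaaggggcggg

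**Figure D1:**
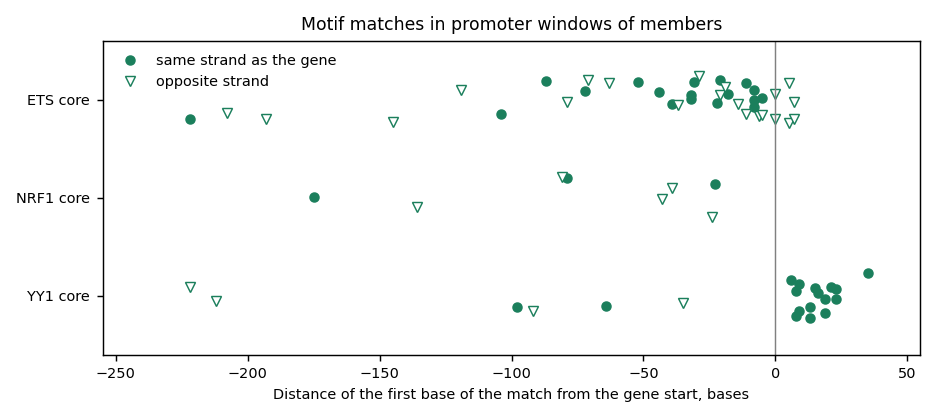
Distance of each motif match from the gene start, in bases, over the promoter windows of 69 members, with filled circles for matches on the strand of the gene and open triangles for the opposite strand. ETS matches gather in the 100 bases before the start (27 of 39), and 15 of 21 YY1 matches lie after it, all on the strand of the gene.

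The members are spread over 21 chromosomes, with 8 each on chromosomes 1, 2 and 17, and many share a start region with a neighbour. A gene on the opposite strand started within 1000 bases of the start of 33 of the 78 members (42.3%), against 26.7% of 19831 protein-coding genes. In 1 pair both genes are members: MRPL46 and MRPS11 start 63 bases apart on chromosome 15. Of the other neighbours, those named next have a known role in mitochondria; they were picked out after the list was seen, and their share was not counted or compared with that of other genes. MRPL36 and MRPL47 each start 41 bases from a gene for a respiratory complex I subunit, NDUFS6 and NDUFB5. MRPL43 starts 148 bases from TWNK, the helicase of mitochondrial DNA, and MRPS12 starts 181 bases from SARS2, the mitochondrial seryl-tRNA synthetase.

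Of the 78 members, 77 passed the filter on low counts and were tested. Levels between genes were compared in TPM (reads per exon base, scaled to a common total), computed here from the deposited counts and the deposited merged exon lengths. In such bulk samples, fewer cells of a type and less RNA per cell cannot be told apart. The members together made up 0.271% to 0.311% of all reads in the knockdown-labelled libraries and 0.269% to 0.298% in the controls. Their mean levels over the 6 libraries ran from 0 to 405 TPM with a median of 40.5 TPM over the 77 tested, against a median of 10.1 TPM over all 20250 tested genes and 19.4 TPM over the 14132 tested protein-coding genes. There were 15 members at 100 TPM or more, 54 between 10 and 100 TPM, 8 below 10 TPM and 1 at 0. Within a gene the libraries were close together: the SD over 6 libraries was below 20% of the mean in 73 of 77 members, with a median of 10.9%. Other genes were as close: the median SD of log2 CPM within groups was 0.151 over members and 0.149 over tested protein-coding genes. Over tested genes of at least 5 CPM it was 0.129.

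MRPS16, the counterpart of a bacterial protein that helps fold the small subunit, was the most abundant member by TPM. It had 413, 434 and 395 TPM in the knockdown-labelled libraries and 410, 391 and 385 TPM in the controls, which overlapped. It alone gave 21.4% to 22.8% of the summed small-subunit TPM in the knockdown-labelled libraries and 21.3% to 22.1% in the controls. MRPS10, MRPS35 and MRPS21 followed in the small subunit at 164 ± 17.6, 160 ± 21.2 and 154 ± 10.5 TPM (SD over 6 libraries), which do not differ beyond their spread. In the large subunit MRPL41 led with 273, 298 and 238 TPM in the knockdown-labelled libraries and 234, 252 and 179 TPM in the controls, and MRPL14, which lies at the interface between the subunits, followed at 206 ± 22.1 TPM. The ranges of MRPL41 in the groups overlapped, and its place rests on a merged exon length of 582 bases. MRPL55, which has a bacterial counterpart, had 166 ± 11.2 TPM, and MRPL51, added in the mitochondrial lineage, had 132 ± 18.3 TPM.

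At the low end stood MRPS24, the counterpart of a bacterial small-subunit protein at the entry of the messenger RNA channel. It had 1.76, 1.42 and 1.67 TPM in the knockdown-labelled libraries and 0.5, 1.72 and 1.74 TPM in the controls, with control 1 alone below 1 TPM. MRPS22, a mitochondrion-specific protein, and MRPS25 measured 5.26 ± 0.49 and 5.7 ± 0.904 TPM. In the large subunit the lowest were MRPL46 with 2.58 ± 0.462 TPM, MRPL2, which in bacteria lies close to the peptidyl transferase centre, with 5.03 ± 0.816 TPM, and MRPL22, which lines the exit tunnel, with 10.3 ± 0.887 TPM. MRPL53 had 0 reads in every library, which allows up to 3 reads in each if every read counts alone. Only 4 of its 685 merged exon bases are free of other genes, so this limit says little about its level.

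Exons of many low members are overlapped by other genes, though not of all: no exon of another gene covers the principal transcripts of MRPL22 and of MRPS27, which had 9.97 TPM, and in MRPS22 and MRPS25 34.1% and 43.9% are covered. The count setting dropped reads that fell on several genes and used no strand, so a read on shared exon bases was not counted. Exons of another gene covered at least 50% of the principal transcript of 10 members, and 6 of these lay below 10 TPM: MRPS24 (85.7%, by the read-through gene URGCP-MRPS24), MRPS5 (83.8%), MRPS18C (78.9%, by ABRAXAS1), MRPL46 (71.1%), MRPL2 (57.6%) and MRPL53 (97.6%). The median level of these 10 was 6.95 TPM, against 57.4 TPM in 45 members with no such overlap, 53.8 TPM in 16 with up to 25% and 40.5 TPM in 7 with 25% to 50%. Another measure, chosen after the data were seen, divided all reads of a gene by the principal-transcript bases that no other gene covers. It keeps reads from free exon bases outside that transcript, so it can overstate levels. By it the 10 had a median of 78.7 TPM and the 45 a median of 107 TPM. On that scale MRPS5 measured 353 TPM, MRPS18C 98.6 TPM, MRPL46 56.0 TPM and MRPS24 37.9 TPM. MRPL2 with 16.2 TPM was the lowest of the tested members on it. With all merged exon bases free of other genes as the length, MRPS5 measured 8.96 TPM, MRPS18C 11.8 TPM and MRPL46 2.91 TPM. MRPS24 then had 1.915 TPM and MRPL2 7.74 TPM.

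The order of levels rests on the length used. With the principal transcript in place of all merged exons, chosen after the data were seen, MRPS6, MRPL20, MRPS16, MRPL27 and MRPL55 were the 5 highest, only 3 of the 10 highest stayed among the 10 highest, and the median of the 77 was 93.3 TPM. MRPS16 was among the 5 highest on each of the 5 scales tried. Named pseudogenes of the same symbol exist for 36 members, and reads that aligned to several places were not counted. The 11 members with 3 or more such pseudogenes had a median of 20.4 TPM, the 25 with 1 or 2 had 57.3 TPM and the 42 with none had 49.6 TPM, so the median did not fall steadily with their number. MRPS16 itself has 3 of them.

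**Figure D2:**
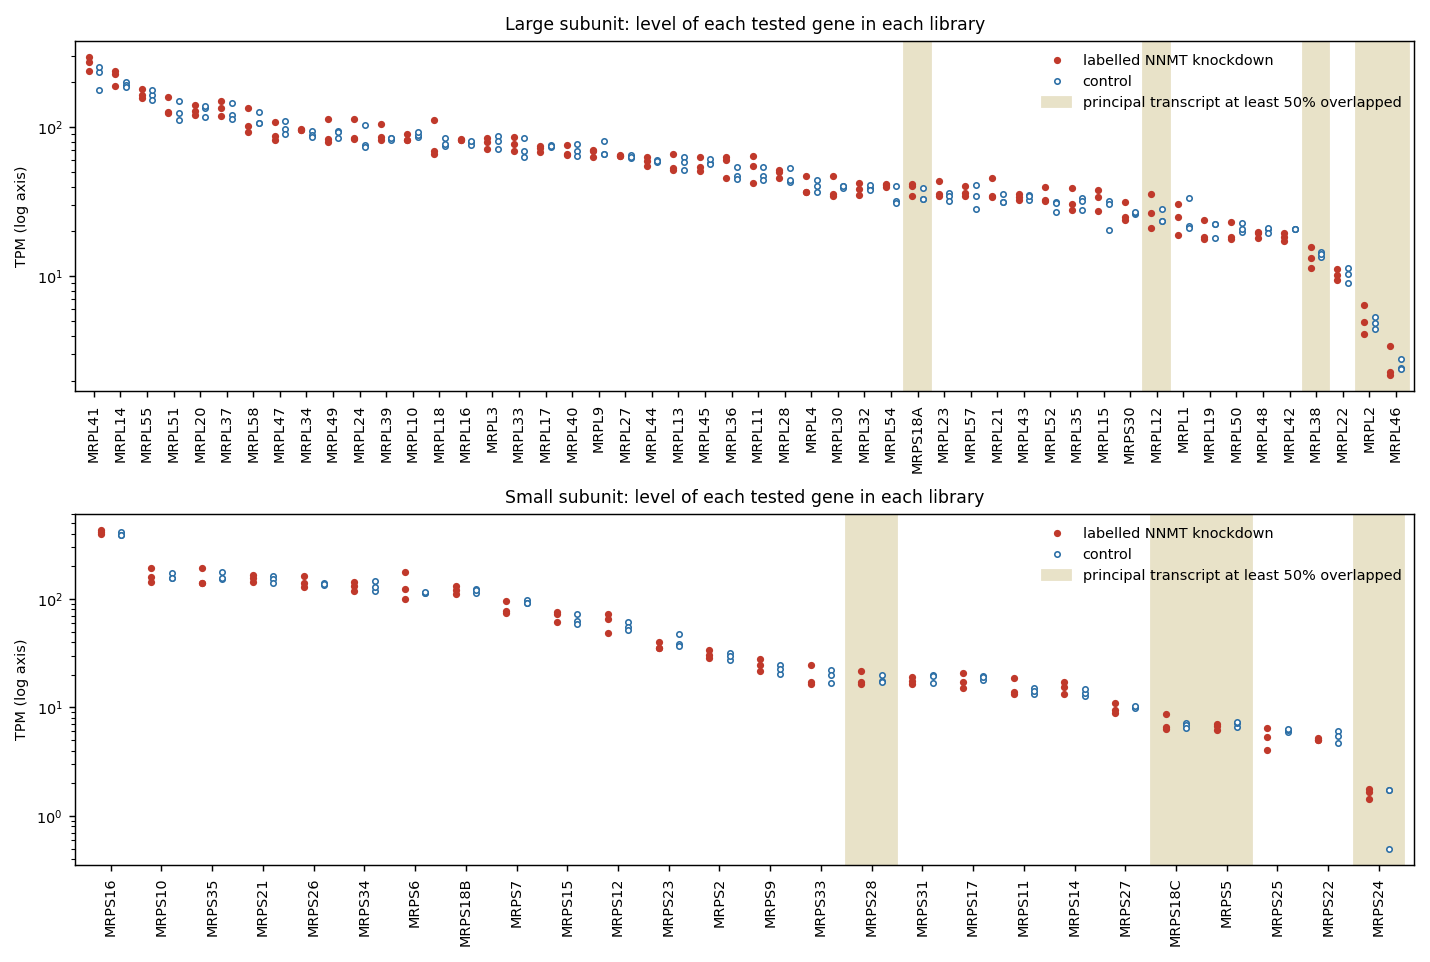
Level of each tested gene of the large (top) and small (bottom) subunit in TPM on a log axis, with filled points for the 3 libraries labelled NNMT knockdown and open points for the 3 controls, ordered by mean level. Shaded genes have at least 50% of their principal transcript covered by exons of other genes and lie mostly at the low end, MRPS24 lowest at 1.47 TPM on average, while MRPS16 stands highest at 405 TPM.

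The comparison of the libraries labelled NNMT knockdown with the controls asks which members differ after transfection. None of the 77 tested members passed edgeR's quasi-likelihood test at the adjusted threshold of 0.05, and neither did any of the 20250 tested genes (0.0%). The lowest adjusted p of a member was 0.9995. At an unadjusted p under 0.05 no member was higher, where 1.98% of all tested genes were, and no member was lower, where 2.05% were. DESeq2 and edgeR without a filter on low counts called 0.0403% and 0.19% of their genes, with no member among them. The fitted log2 fold change was above 0 in 49 members and below 0 in 28, or 63.6% above 0 against 50.8% of all tested genes. The median was 0.04 over the members and 0.0033 over all tested genes, with a range of −0.20 to 0.30 over the members. The 95% interval of the fold lay within 1.5-fold in either direction for 70 of 77 members (90.9%), against 88.5% of the 11518 tested genes of at least 5 CPM, and within 2-fold for all but MRPS24.

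The split above and below 0 turned on single libraries. Without knockdown-labelled library 2 the median fell to −0.03 with 34 members above 0, and without control 3 it was −0.0018 with 38 above 0. Without knockdown-labelled library 3 it was 0.10 with 61 above 0, and without control 1 it was 0.10 with 60 above 0.

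Among the large-subunit genes the lowest p-values on the higher side belonged to MRPL52, a mitochondrion-specific protein. MRPL52 (chromosome 14, 22829879 to 22835037, hg38) had 25.3, 30.1 and 25.3 CPM in the knockdown-labelled libraries and 24.6, 20.7 and 23.1 CPM in the controls. Every knockdown-labelled library lay above every control, with a gap of less than 1 CPM to control 1. The log2 fold change was 0.24 with a standard error of 0.11 and did not pass (adjusted p = 0.9995, edgeR's quasi-likelihood test). MRPL16, a protein near the peptidyl transferase centre, was the other member whose libraries lay higher without overlap, at 44.02, 42.6 and 43.3 CPM in the knockdown-labelled libraries and 42.0, 39.5 and 40.9 CPM in the controls. It was named after its values were seen, and its log2 fold change was 0.09. That makes 2 of 77 members higher without overlap, where 4.32% of all tested genes were.

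MRPL41, a protein specific to mitochondria, had 39.2, 40.6 and 33.7 CPM in the knockdown-labelled libraries and 33.2, 35.3 and 24.2 CPM in the controls. The ranges overlapped through knockdown-labelled library 3 and control 2, and control 3 was the lowest of the 6. Its log2 fold change was 0.29 with a standard error of 0.14. MRPL14 differed by 0.19, MRPL21 by 0.22 and MRPL54 by 0.26 on the log2 scale, with overlapping groups, and edgeR's quasi-likelihood test gave each an adjusted p of 0.9995.

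On the lower side MRPL42, a mitochondrion-specific protein, was the sole member whose knockdown-labelled libraries all lay below the controls, where 4.88% of all tested genes did so. It had 69.9, 70.2 and 77.4 CPM in the knockdown-labelled libraries and 82.1, 81.1 and 78.7 CPM in the controls, so that knockdown-labelled library 3 came within 2 CPM of control 3. Its log2 fold change was −0.15 with a standard error of 0.08 (adjusted p = 0.9995, edgeR's quasi-likelihood test), and 5 pseudogenes share its symbol. MRPS7, MRPS25 and MRPS23 of the small subunit had log2 fold changes of −0.16, −0.20 and −0.14, all with overlapping groups. MRPS7 is the counterpart of a bacterial protein that starts assembly of the head of the small subunit, and in it control 1 was highest at 79.1 CPM and knockdown-labelled library 3 lowest at 60.3 CPM. MRPS25, specific to mitochondria, had 18.2, 23.0 and 28.5 CPM in the knockdown-labelled libraries and 26.2, 27.5 and 26.7 CPM in the controls. Its knockdown-labelled library 1 was the lowest of the 6 and its knockdown-labelled library 3 the highest.

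**Figure D3:**
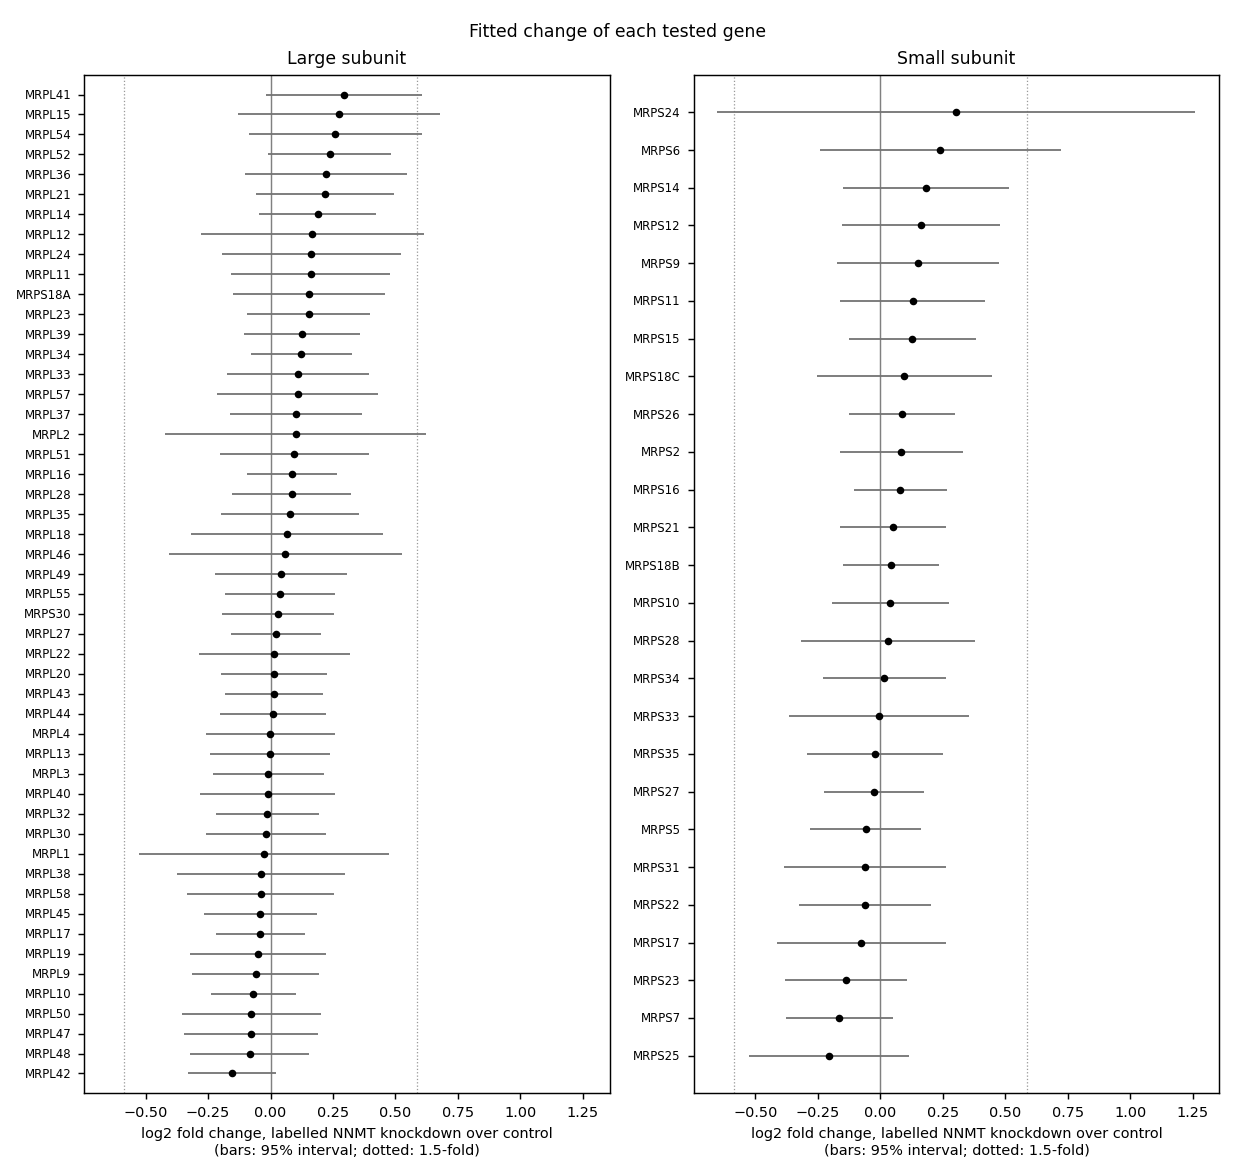
Fitted log2 fold change of each tested gene of the large (left) and small (right) subunit, libraries labelled NNMT knockdown over control, with 95% intervals and dotted lines at 1.5-fold. Every interval crosses 0, and the widest belongs to MRPS24, whose level is the lowest of the tested members.

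By subunit the changes were alike in size. Of the 50 tested large-subunit genes 32 lay above 0 with a median of 0.04, and of the 26 small-subunit genes 16 lay above 0 with a median of 0.04. Genes of the large subunit with bacterial counterparts had a median of 0.05 (19 of 30 above 0), and those specific to mitochondria had 0.04 (13 of 20). In the small subunit the corresponding medians were 0.09 (13 of 16 above 0) and −0.02 (3 of 10). These 2 classes also differed in median merged exon length, at 2600 and 3696 bases, and the part of length was not tested. MRPS18A and MRPS18B were classed as specific to mitochondria, although they descend from a bacterial protein. The summed large-subunit TPM divided by the summed small-subunit TPM was 1.72, 1.79 and 1.74 in the knockdown-labelled libraries and 1.74, 1.74 and 1.67 in the controls, which overlapped.

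The stalk that recruits translation factors to the large subunit is built from MRPL10, MRPL11 and MRPL12. MRPL10, its base, had 55.9, 58.3 and 55.02 CPM in the knockdown-labelled libraries and 57.7, 59.4 and 60.4 CPM in the controls, and its log2 fold change of −0.07 was 1 of the 5 with the lowest p on the lower side. MRPL11 and MRPL12 had log2 fold changes of 0.16 and 0.17 with standard errors of 0.14 and 0.20. Both were highest in knockdown-labelled library 2 and lowest in knockdown-labelled library 3. The log2 fold change of MRPL12 was −0.04 without knockdown-labelled library 2, and exons of another gene cover 68.2% of its principal transcript.

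MRPS12, whose bacterial counterpart forms part of the decoding centre, had 28.3, 29.9 and 20.8 CPM in the knockdown-labelled libraries and 26.2, 23.3 and 21.1 CPM in the controls. The groups overlapped, with knockdown-labelled library 3 the lowest of the 6, and the log2 fold change was 0.16 with a standard error of 0.14. MRPL58, a peptidyl-tRNA hydrolase that became a fixed part of the large subunit, had a log2 fold change of −0.04 with a standard error of 0.13. MRPS30, counted here in the large subunit, had one of 0.03 with a standard error of 0.10.

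The 3 paralogs MRPS18A, MRPS18B and MRPS18C descend from a single bacterial protein. MRPS18B was the most abundant at 120 ± 7.59 TPM, against 37.0 ± 3.75 TPM for MRPS18A and 7.03 ± 0.882 TPM for MRPS18C (SD over 6 libraries). MRPS18B thus exceeded MRPS18C by 17.1 times on this scale. All reads divided by the principal-transcript bases that no other gene covers gave 138, 112 and 98.6 TPM for MRPS18B, MRPS18A and MRPS18C. Reads from outside that transcript stay in this measure. Divided by all merged exon bases free of other genes, they gave 120, 75.4 and 11.8 TPM in the same order. Their log2 fold changes were 0.04, 0.16 and 0.10, with overlapping groups in all 3.

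The members that varied most between libraries were MRPS24, MRPL1 and MRPS6. MRPS6, the counterpart of a bacterial protein of the small-subunit platform, had 187, 101 and 128 CPM in the knockdown-labelled libraries and 118, 117 and 116 CPM in the controls. Knockdown-labelled library 1 stood far above the other 5 libraries, and knockdown-labelled library 2 was the lowest of all. The log2 fold change was 0.24 with all libraries and −0.04 without knockdown-labelled library 1. MRPL1, a large-subunit protein whose bacterial counterpart lies beside the exit site for transfer RNA, had 10.0, 11.7 and 7.53 CPM in the knockdown-labelled libraries and 13.2, 8.55 and 8.00 CPM in the controls. Control 1 was the highest, and the log2 fold change was −0.03 with all libraries and 0.23 without it.

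The members shared a pattern over the libraries that did not follow the groups. Relative to the mean of the 6 libraries, the median member stood at −0.01, 0.13 and −0.08 on the log2 CPM scale in knockdown-labelled libraries 1, 2 and 3, and at 0.08, −0.05 and −0.09 in controls 1, 2 and 3. The 2 high libraries came from different groups, as did the 2 lowest. In knockdown-labelled library 2, 61 of 77 members lay above their mean, and in control 1, 60 did. In knockdown-labelled libraries 1 and 3 the counts were 36 and 21, and in controls 2 and 3 they were 26 and 13. Over all tested genes between 49.2% and 51.4% lay above their mean in each library, and over genes of at least 5 CPM 45.8% to 56.3%. Among such genes with 1500 to 3000 exon bases the shares were 58.6% in knockdown-labelled library 2 and 63.0% in control 1. They were 41.8% in knockdown-labelled library 3 and 30.3% in control 3. The members of that length had 79.4%, 82.4%, 32.4% and 14.7% in the same order, so genes of like length leaned to the same sides by less.

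Knockdown-labelled library 2 was the highest of the 6 for 38 members (49.4%), against 22% of the 11518 genes of at least 5 CPM. Control 3 was the lowest for 28 members (36.4%), against 19.7% of those genes. Control 3 was also the deepest library. Both subunits shared this order: the large-subunit medians were 0.15 in knockdown-labelled library 2 and −0.09 in control 3, and the small-subunit medians were 0.10 and −0.09. Size factors of the RLE kind or library totals in place of TMM kept both of these libraries on the same sides, at 0.13 and 0.15 in knockdown-labelled library 2 and −0.09 and −0.07 in control 3. With library totals, however, knockdown-labelled library 3 was the lowest, at −0.08.

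**Figure D4:**
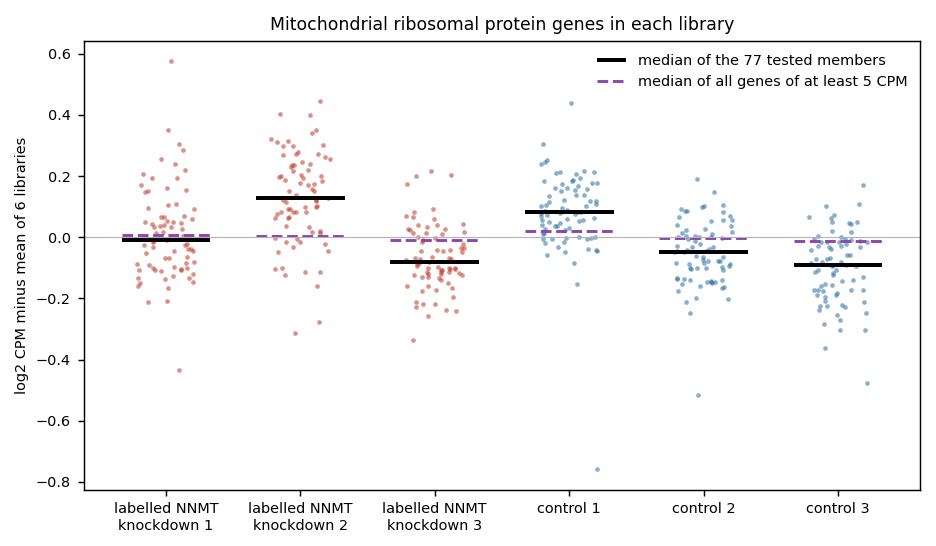
Deviation of each of the 77 tested members from its mean over the 6 libraries, in log2 CPM, for the 3 libraries labelled NNMT knockdown and the 3 controls. Black bars mark the median member, highest in knockdown-labelled library 2 (0.13) and lowest in control 3 (−0.09), and dashed bars mark the median of all genes of at least 5 CPM, which stay within 0.02 of 0.

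Exon length moved with these values. Most members are short: their median merged exon length is 2549 bases, against 4175 bases over all tested genes. In the 15 members of up to 1500 bases the median log2 fold change was 0.09 and 12 lay above 0, against 0.09 in 401 genes of at least 5 CPM in this length class. In the 34 members of 1500 to 3000 bases it was 0.08 with 25 above 0, against 0.05 in 1649 genes. In the 19 members of 3000 to 6000 bases it was 0.01, against 0.00 in 4184 genes, and in the 9 longer members it was −0.06 with 2 above 0, against −0.02 in 5284 genes. With an offset for exon length in each library the median over the members was 0.02 and 45 lay above 0.

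In the classes up to 6000 bases the median member deviated further from 0 than the median gene of its class in both knockdown-labelled library 2 and control 3. In knockdown-labelled library 2 the median deviation of the members of up to 1500 bases was 0.18 and that of genes of at least 5 CPM in this class was 0.08, and in control 3 the values were −0.17 and −0.12. In the class of 1500 to 3000 bases the members had 0.12 in knockdown-labelled library 2 and −0.11 in control 3, against 0.04 and −0.07 for the genes of that class. Among members of 3000 to 6000 bases the medians were 0.14 in knockdown-labelled library 2 and −0.06 in control 3, against 0.0045 and −0.03 for the genes of that class. The 9 longer members stood above 0 in control 3, at 0.04, as did the genes of their class at 0.02, and at 0.02 in knockdown-labelled library 2, against −0.0089 for those genes. The part of length in these differences was not tested beyond the offset.

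**Figure D5:**
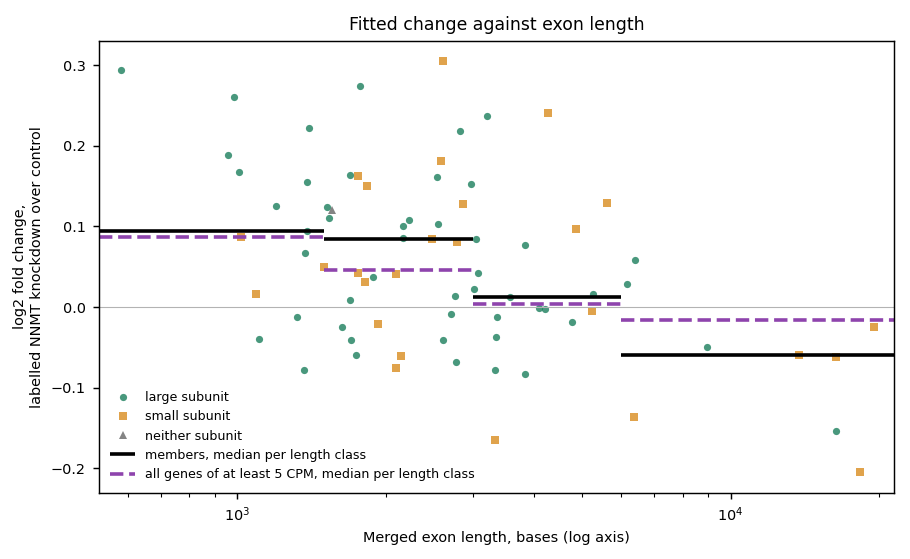
Fitted log2 fold change of each tested member, libraries labelled NNMT knockdown over control, against merged exon length in bases on a log axis, with solid bars for the median member and dashed bars for the median of all genes of at least 5 CPM in each of 4 length classes. Both medians fall with length, and for the members they run from 0.09 in the shortest class to −0.06 in the longest.

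The genes that work with the mitochondrial ribosome were read from 4 further lists, and no gene of them passed the test. Of 5 subunit genes named outside the MRPL and MRPS scheme (DAP3, PTCD3, CHCHD1, AURKAIP1 and GADD45GIP1), 3 had a log2 fold change above 0 and the median was 0.15. GADD45GIP1, a large-subunit protein, had 65.1, 67.5 and 54.1 CPM in the knockdown-labelled libraries and 57.1, 49.4 and 47.5 CPM in the controls, with a log2 fold change of 0.28. AURKAIP1, a small-subunit protein, had 175, 171 and 146 CPM in the knockdown-labelled libraries and 152, 143 and 116 CPM in the controls, with a log2 fold change of 0.26. In both genes knockdown-labelled library 3 fell among the controls, and edgeR's quasi-likelihood test gave an adjusted p of 0.9995 for each. These 5 genes followed the members between libraries, with medians of 0.19 in knockdown-labelled library 2 and −0.24 in control 3.

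Assembly factors, 27 genes with 14 above 0, had a median log2 fold change of 0.00. RBFA, a factor for maturation of the small subunit, and NDUFAB1, the mitochondrial acyl carrier protein, had log2 fold changes of 0.25 and 0.19. Of 21 translation factors and helpers 12 lay above 0, with a median of 0.01. SLIRP, which with LRPPRC stabilises mitochondrial messenger RNAs, had 18.4, 21.98 and 15.4 CPM in the knockdown-labelled libraries and 14.8, 13.1 and 13.5 CPM in the controls. All its knockdown-labelled libraries lay above the controls, and its log2 fold change of 0.43 with a standard error of 0.14 did not pass (adjusted p = 0.9995, edgeR's quasi-likelihood test). TRMU, which thiolates mitochondrial transfer RNAs, had a log2 fold change of 0.17. The libraries of TRMU, RBFA and NDUFAB1 also lay higher without overlap. In all, 3 of 27 assembly genes and 2 of 21 translation genes did so, where 4.32% of all tested genes did. Lower without overlap were 1 of 27 and 0 of 21, where 4.88% of all tested genes were. Of 27 genes of mitochondrial transcription, replication and RNA processing 12 lay above 0, with a median of −0.01. TWNK and POLG2, an accessory subunit of the mitochondrial DNA polymerase, had log2 fold changes of −0.19 and −0.16. In knockdown-labelled library 2 the assembly, translation and transcription lists had median deviations of 0.07, 0.05 and 0.07 in log2 CPM, against 0.13 for the members. In control 1 these medians were 0.03, 0.04 and 0.07, against 0.08. In control 3 they were −0.03, 0.01 and −0.02, against −0.09, so that the translation list alone stood above 0 there.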

How the data were processed

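The authors deposited raw read counts per gene, made with featureCounts 2.0.6 on hg38 with GENCODE 44, per the file headers. The submitters' processing notes add GRCh38. Which aligner was used was not given in the sources used here. Per the file headers the command dropped reads over several genes or places, set no strand and did not join mates, so 1 fragment can count as 2 reads. Members, lists and tests were chosen with earlier results of these data known.

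Here all 62700 genes were matched to symbols by identifier. The filter filterByExpr kept 20250, libraries were scaled with TMM, and the groups were compared with the quasi-likelihood test of edgeR 4.0.16 in R 4.3.3 (robust dispersion, Benjamini-Hochberg over all tested genes, threshold 0.05), at a biological coefficient of variation of 18.3%. The standard error of a fold change was derived with its F statistic. NNMT failed the filter and was added to the fit. CPM is TMM-scaled. TPM used the deposited merged exon length. Gene types and principal transcripts came from GENCODE 29, which lacks 4493 of the genes. The test was tested on simulated data. Named genes are NNMT, the 5 members with the lowest p in each direction, the 4 highest and 3 lowest per subunit by TPM, the 3 most variable, the stalk, the MRPS18 paralogs, MRPS12, MRPL58, MRPS30, members that failed the filter and the 2 genes with the lowest p of each list. Alternatives were other scalings, filters and lengths, DESeq2 1.42.0, limma-voom 3.58.1, halved counts, a length offset, a replicate block and leaving out each library. Intervals and floors cover counting error only where they rest on reads.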

Additional observations from a re-analysis of the deposited data

How the results depend on the processing

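No member was called under any of the 16 planned settings (other scalings and filters, DESeq2, limma-voom, halved counts, the length offset, non-robust dispersion, a replicate block, leaving out each library). The median over members of 0.04 ran from −0.03 (without knockdown-labelled library 2) to 0.10 (without control 1), so its sign turned on single libraries. The SD between replicates of the median member was 0.0977. Leaving out 1 library of 3 can hardly move the median by more than this, so the SD is no test of these shifts. The count above 0 ran from 34 (without knockdown-labelled library 2) to 61 (without knockdown-labelled library 3). Without the tested members whose principal transcripts are at least 50% overlapped, chosen after the data were seen, 42 of 68 lay above 0 with a median of 0.04. Over all genes 72 were called without a filter, 8 by DESeq2 and 0 to 1 when a library was left out, the 1 without control 3. The cause was not tested. The NNMT log2 fold change of 0.48 ran from −0.19 (without knockdown-labelled library 3) to 1.06 (without control 3) and was −0.04 without control 1. Equal replicate numbers did not pair the libraries (correlations of their deviations 0.055, −0.087 and 0.200), and the fit with the replicate block called 0 genes, with a median over members of 0.03. The log2 fold changes of MRPL46, MRPS10 and MRPS30 were −0.16, −0.07 and −0.08 without knockdown-labelled library 2, and the median of the 5 subunit genes named outside the scheme was 0.26 without control 1. A mean of at least 1 CPM dropped MRPS24, so it has no value there. With all reads of a gene divided by its merged exon bases free of other genes, the median level was 53.6 TPM. Divided by the principal transcript it was 93.3 TPM, and by the free bases of that transcript 98.6 TPM. Low counts limit MRPS24, MRPL2 and MRPL46, whose intervals are wide.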
